A study of Homo sapiens with 12 samples.

Results

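AP-1 is a family of transcription factor dimers, and the 10 genes described here encode its main subunits and the immediate early factors that act beside it. They are FOS, FOSB, FOSL1, FOSL2, JUN, JUNB, JUND, ATF3, EGR1 and MYC, taken by name from a deposited table of 59498 genes, and all 10 passed the filter on low counts that left 17947 genes for testing. RNA was sequenced from SKOV-3, an established human ovarian adenocarcinoma line, in 4 groups of 3 libraries: cisplatin-resistant cells in which KDM5A and KDM5B were both knocked out (resistant dKO), cisplatin-resistant cells without it (resistant, the SKOV-3 CDDP line), parental cells with the double knockout (parental dKO) and parental cells without it (parental). All groups grew in a medium with 10% fetal bovine serum, and no cisplatin exposure at harvest is named in the labels. KDM5A and KDM5B remove methyl groups from lysine 4 of histone H3, and the study asks about KDM5 proteins in resistance to cisplatin. The labels do not say whether each knockout line is a clone or whether replicate libraries stem from different cultures. The p-values therefore reflect the variation among these libraries, part of which may be technical. In bulk RNA, fewer cells that express a gene and less RNA of it per cell cannot be told apart.

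FOS proteins form no stable dimers with each other and pair with a JUN protein, and the pairs bind the TPA response element that many growth, invasion and cytokine genes carry. Growth factor signals through the MAP kinases switch on FOS, FOSB, EGR1 and JUNB within minutes, largely through serum response factor, which binds CArG boxes, and the messages decay as quickly. FOSL1 and FOSL2 lack the strong activation domain of FOS and are held up by sustained MAP kinase signalling. ATF3 is induced by stress, and MYC is a growth regulator that pairs with MAX through a different type of domain.

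Each library held between 15659352 and 19706754 counts, and mitochondrial genes took 5.34% to 16.3% of them, most in parental dKO library 3. The targeted gene KDM5A was at 17.6, 14.8 and 12.0 CPM, the count rescaled by library size and TMM factor, in resistant dKO libraries, against 39.9, 39.0 and 33.4 CPM in resistant libraries. It was at 22.5, 20.9 and 15.6 CPM in parental dKO libraries, against 30.9, 41.5 and 39.4 CPM in parental libraries. All knockout libraries lay below their controls, as for 7.17% of genes tested in resistant and 3.38% in parental cells. KDM5A passed edgeR's test at an adjusted p under 0.05 in neither background. Its log2 fold change was -1.34 ± 0.25 in resistant (edgeR adjusted p = 0.0524) and -0.92 ± 0.25 in parental cells. KDM5B overlapped between knockout and control libraries in both backgrounds. The libraries numbered 3 stood apart for several of the 10 genes, and several results that rest on them are given with and without them. The summed level of 9 fibroblast markers was 2550 to 4460 CPM in resistant dKO, 361 to 962 CPM in resistant, 2.56 to 28.7 CPM in parental dKO and 1.91 to 8.85 CPM in parental libraries. At least 1 CPM was reached by 6, 5, 3 and 1 of these markers in the same order, none was at 0 counts in a whole group, and the collagen gene COL1A1 made up most of the sum in the resistant groups, at 3650 CPM in resistant dKO and 671 CPM in resistant cells, but not in the parental groups, at 3.28 CPM in parental dKO and 0.927 CPM in parental cells. DCN ran the other way between resistant and parental cells, at 0.593, 0.0748, 5.77 and 2.46 CPM in the same order of groups. THY1 was at 0.033, 0.0398, 0.246 and 0.0518 CPM in that order, from only 2, 2, 13 and 3 reads. PDGFRA ran the other way between knockout and control cells of the resistant line, at 2.26 CPM in resistant dKO and 3.90 CPM in resistant cells. The part of these markers in the differences between resistant and parental cells, or between knockout and control cells of the resistant line, was not tested. Of 10 SKOV-3 and ovarian carcinoma markers, 8, 7, 8 and 7 reached 1 CPM in resistant dKO, resistant, parental dKO and parental cells. Their levels differed between groups, some lower and some higher in resistant cells. In the same order ERBB2 was at 925, 982, 2310 and 4870 CPM and KRT19 at 17.5, 1.58, 128 and 152 CPM. KRT8 was at 1040, 1380, 206 and 224 CPM. Of 5 endothelial markers none reached 1 CPM in any group, and of 6 leukocyte markers 1 did.

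The promoters of 5 of these genes are shown because they belong to the genes that rose (EGR1, FOS), fell (JUND, ATF3) or had opposite offsets in the knockouts (JUNB). Each window runs from 250 bases before to 50 bases after the RefSeq start site on GRCh38.p14 and is printed 5′ to 3′ on the gene's strand, with motif matches in capitals. The windows are EGR1 at chr5:138465229-138465528 on the plus strand, FOS at chr14:75278578-75278877 on the plus strand, JUND at chr19:18281573-18281872 on the minus strand, the first of 2 windows of ATF3 at chr1:212565157-212565456 on the plus strand, and JUNB at chr19:12791236-12791535 on the plus strand.
EGR1: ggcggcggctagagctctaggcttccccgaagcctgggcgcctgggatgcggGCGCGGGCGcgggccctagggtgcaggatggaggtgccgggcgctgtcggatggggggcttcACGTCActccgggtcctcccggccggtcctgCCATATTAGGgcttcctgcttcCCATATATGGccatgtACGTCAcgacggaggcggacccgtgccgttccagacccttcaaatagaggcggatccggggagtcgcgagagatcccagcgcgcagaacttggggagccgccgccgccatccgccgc
FOS: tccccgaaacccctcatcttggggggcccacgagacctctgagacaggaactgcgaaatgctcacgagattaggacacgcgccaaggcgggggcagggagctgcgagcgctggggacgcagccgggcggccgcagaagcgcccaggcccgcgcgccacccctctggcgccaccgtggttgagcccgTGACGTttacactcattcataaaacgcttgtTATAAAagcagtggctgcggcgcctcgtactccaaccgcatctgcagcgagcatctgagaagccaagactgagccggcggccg
JUND: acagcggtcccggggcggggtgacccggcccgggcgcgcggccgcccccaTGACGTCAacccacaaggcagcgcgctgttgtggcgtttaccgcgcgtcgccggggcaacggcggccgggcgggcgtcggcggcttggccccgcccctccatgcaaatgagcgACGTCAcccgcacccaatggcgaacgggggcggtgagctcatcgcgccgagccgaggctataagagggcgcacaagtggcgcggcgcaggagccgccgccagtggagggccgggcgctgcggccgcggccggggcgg
ATF3: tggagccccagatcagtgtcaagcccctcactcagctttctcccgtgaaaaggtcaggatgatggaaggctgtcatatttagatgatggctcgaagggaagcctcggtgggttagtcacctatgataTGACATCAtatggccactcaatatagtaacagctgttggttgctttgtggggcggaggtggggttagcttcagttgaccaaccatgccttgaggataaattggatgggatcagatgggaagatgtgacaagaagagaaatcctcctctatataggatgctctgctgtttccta
JUNB: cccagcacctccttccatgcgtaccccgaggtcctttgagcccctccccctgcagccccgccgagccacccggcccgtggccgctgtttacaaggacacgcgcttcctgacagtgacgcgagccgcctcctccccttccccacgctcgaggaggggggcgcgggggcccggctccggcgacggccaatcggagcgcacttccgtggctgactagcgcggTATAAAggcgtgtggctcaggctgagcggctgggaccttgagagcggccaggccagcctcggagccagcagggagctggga
The capitals in EGR1 are 2 CArG boxes that begin 105 and 83 bases before the start site, 1 EGR site (GCGNGGGCG) and 2 CRE cores (TGACGT, here read on the other strand). In FOS they are a CRE core 64 bases and a TATA box (TATAAA) 33 bases before the start, and in JUNB a TATA box 31 bases before it. No CArG box was matched in the FOS and JUNB windows, but any CArG box more than 250 bases before the start would have been missed. JUND holds a full cAMP response element (TGACGTCA) 200 bases before the start and a further CRE core, and ATF3 holds the variant TGACATCA before the start. The same TGACATCA stood 67 bases before the start of JUN, and FOSL2 held a TPA response element, TGANTCA, at position 5 after the start.

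Both strands of the windows of 8 of the 10 genes were searched, those of FOSL1 and MYC not. Of 35116 RefSeq windows of this length, 1.29% held a CArG box, 7.71% TGANTCA, 1.85% TGACGTCA, 9.43% GCGNGGGCG, 7.26% the E-box CACGTG, 11.5% TATAAA, 7.72% TGACNTCA and 7.98% TGACGT. The last pair of patterns was added after the sequences were seen, and every TGACGTCA also matches both. A match describes the letters in the window and not a bound site.

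In resistant against parental cells, 5 of the 10 genes passed edgeR's quasi-likelihood test at an adjusted p under 0.05 (Benjamini-Hochberg over 17947 genes), where 28.0% of all genes tested did. EGR1 and FOS rose, against a background of 15.2% of genes, and FOSL1, JUND and ATF3 fell, against 12.8%. Among dKO cells, resistant against parental, 5 of 10 passed where 23.9% of all genes did: EGR1 and FOS rose (background 13.6%), and FOSL2, JUND and ATF3 fell (background 10.2%). The median log2 fold change of the 10 genes was -0.72 without the knockout and -0.64 among dKO cells, against 0.02 and -0.00235 over all genes tested. In cells without the knockout all resistant libraries lay above all parental ones for EGR1 and FOS (23.7% of genes tested) and below them for FOSL1 and JUND (21.8%). Among dKO cells they lay above for EGR1, FOS and JUNB (20.3%) and below for FOSL1, FOSL2 and JUND (16.9%).

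**Figure D1:**
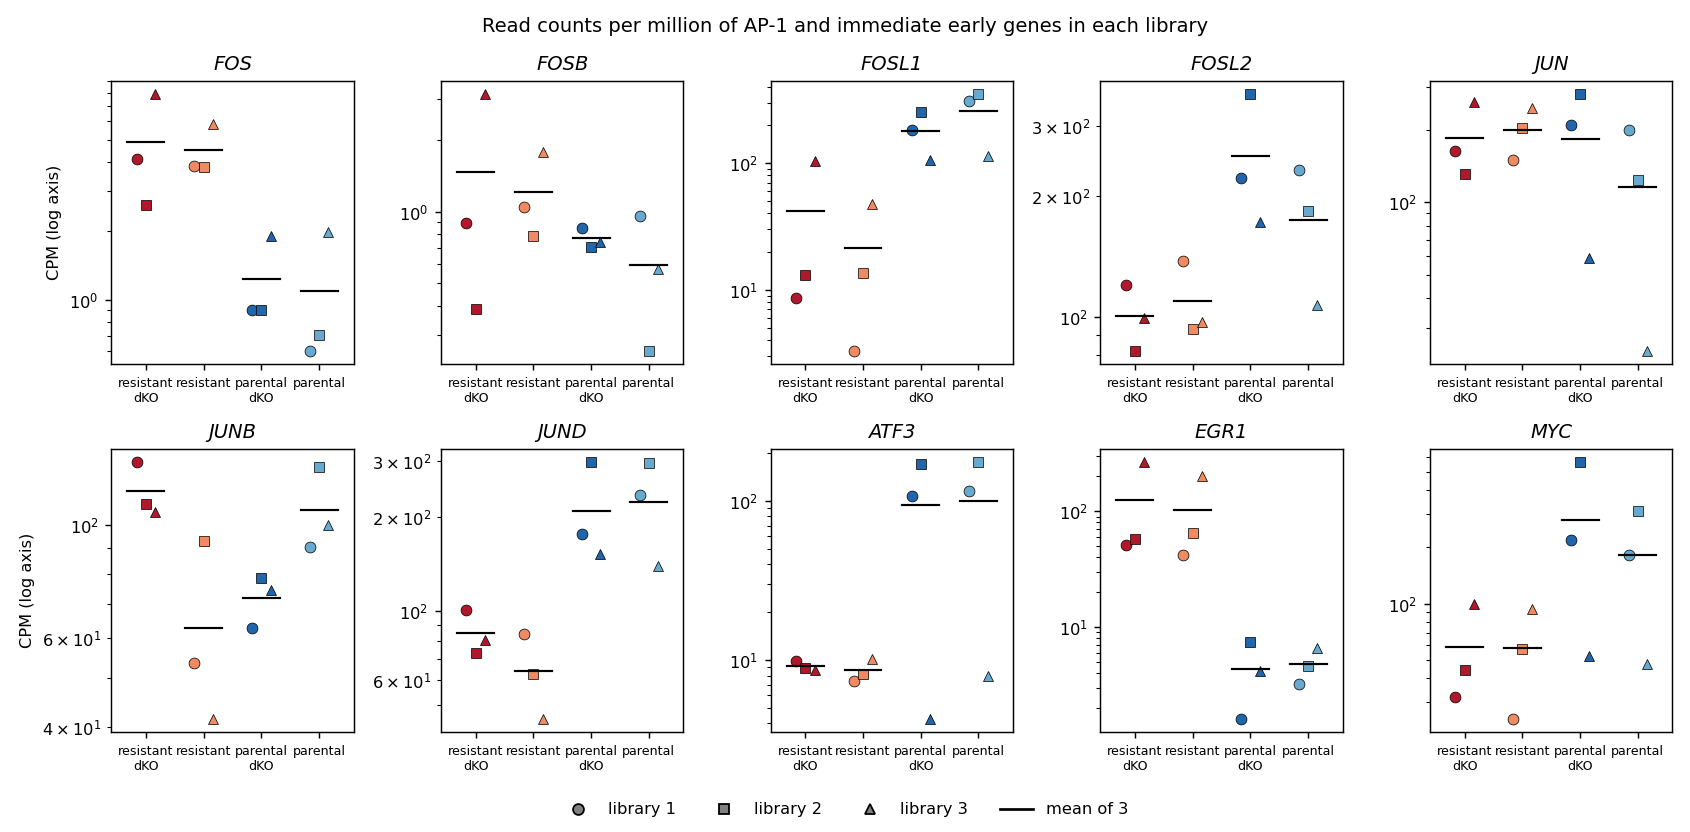
Level of each of the 10 genes in CPM (log axis) in every library, by group from resistant dKO to parental, with the replicate number as the symbol and the group mean as a line. EGR1 lay at 42.2 CPM or more in every resistant library and at 7.36 CPM or less in every parental one, and ATF3 of the parental cells was low only in the libraries numbered 3.

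EGR1 (ENSG00000120738, GRCh38 chr5:138465490-138469315, plus strand) is a zinc finger factor induced by serum and MAP kinase signals. It was at 42.2, 64.7 and 201 CPM in resistant libraries, against 3.23, 4.61 and 6.57 CPM in parental libraries. All resistant libraries lay above all parental ones, and resistant library 3 was far above the other two. The means were 103 ± 85.9 CPM in resistant cells and 4.80 ± 1.68 CPM in parental cells (SD, n = 3 each), and the log2 fold change was 4.41 ± 0.82 (SE, edgeR adjusted p = 0.002), or 21.3-fold. Among dKO cells EGR1 was at 51.6, 57.5 and 267 CPM in resistant libraries, against 1.60, 7.36 and 4.14 CPM in parental libraries. The groups were again apart, with a log2 fold change of 4.85 ± 0.84 (edgeR adjusted p = 0.00156), or 28.8-fold. EGR1 passed with every library left out in turn. Its fold was 11.3 without resistant library 3 and 12.5 without resistant dKO library 3, and 44.0 without parental dKO library 2.

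FOS (ENSG00000170345, chr14:75278774-75282230, plus strand), the prototype partner of JUN, was low in all cells. It was at 3.85, 3.78 and 5.83 CPM in resistant libraries, against 0.597, 0.705 and 1.97 CPM in parental libraries, from 62 to 111 reads and 10 to 38 reads per library. The groups did not overlap, and the log2 fold change was 2.02 ± 0.58 (edgeR adjusted p = 0.0204). Among dKO cells FOS was at 4.11, 2.60 and 7.91 CPM in resistant libraries, against 0.902, 0.904 and 1.90 CPM in parental libraries, again without overlap and with a log2 fold change of 1.97 ± 0.58 (edgeR adjusted p = 0.0254). The call in cells without the knockout was lost without parental library 1 (log2 1.73), parental library 2 (1.79) or resistant library 3 (1.82), and the value was 2.76 without parental library 3. The call among dKO cells was lost without parental dKO library 1 (1.78) or 2 (1.80) or resistant dKO library 1 (2.07) or 3 (1.44).

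FOSB, a close relative of FOS, was near the limit of counting. It was at 1.05, 0.792 and 1.79 CPM in resistant libraries, against 0.956, 0.256 and 0.569 CPM in parental libraries, and these overlapped. Among dKO cells it was at 0.891, 0.388 and 3.15 CPM in resistant libraries, against 0.852, 0.710 and 0.747 CPM in parental libraries. Its log2 fold changes of 1.02 ± 0.72 and 0.92 ± 0.70 did not pass (edgeR adjusted p = 0.311 and 0.365). FOSB overlaps the oppositely transcribed ERCC1, a DNA repair gene, and had 213 reads over the 12 libraries where ERCC1 had 15503. ERCC1 itself was not called (log2 0.29 and 0.56, edgeR adjusted p = 0.373 and 0.0951), though all resistant libraries lay above the parental ones in both comparisons, and the strand setting of the counting is not known here.

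FOSL1 (ENSG00000175592, chr11:65892049-65900573, minus strand), which encodes FRA-1, had the highest level per exon length of the FOS family in every parental library. It was at 3.27, 13.6 and 47.6 CPM in resistant libraries, against 311, 351 and 113 CPM in parental libraries. The groups did not overlap, although library 3 was the highest of the resistant and the lowest of the parental libraries. The means were 21.5 ± 23.2 CPM in resistant cells and 258 ± 127 CPM in parental cells (SD, n = 3 each), and the log2 fold change was -3.58 ± 1.02 (edgeR adjusted p = 0.0201). Among dKO cells FOSL1 was at 8.66, 13.2 and 103 CPM in resistant libraries, against 181, 251 and 105 CPM in parental libraries, so that the libraries numbered 3 nearly met. The log2 fold change of -2.11 ± 0.96 did not pass (edgeR adjusted p = 0.129), and it was -4.04 (adjusted p = 0.0125) without resistant dKO library 3. With all libraries it passed in limma-voom (-2.93, adjusted p = 0.0327) and in edgeR with no filter on low counts (-2.12 ± 0.355, adjusted p = 1.01e-07). Without the filter the fold change hardly moved and the SE was smaller, from the same libraries. In cells without the knockout the call was lost without parental library 2 (log2 -3.30), resistant library 1 (-3.08) or resistant library 2 (-3.35), and the value was -4.89 without resistant library 3.

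FOSL2 (ENSG00000075426, chr2:28392448-28417312, plus strand), which encodes FRA-2, fell among dKO cells. It was at 120, 81.9 and 99.3 CPM in resistant dKO libraries, against 222, 360 and 172 CPM in parental dKO libraries, without overlap. The log2 fold change was -1.32 ± 0.35 (edgeR adjusted p = 0.0164), and the call was lost without parental dKO library 2 (-0.97) or resistant dKO library 2 (-1.21). Without the knockout FOSL2 was at 138, 92.9 and 96.7 CPM in resistant libraries, against 232, 184 and 107 CPM in parental libraries, which overlapped. There the log2 fold change of -0.67 ± 0.35 did not pass (edgeR adjusted p = 0.165).

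JUND (ENSG00000130522, chr19:18279760-18281622, minus strand), the JUN gene that is least tied to growth signals, fell in both comparisons. It was at 84.6, 62.7 and 45.1 CPM in resistant libraries, against 234, 296 and 139 CPM in parental libraries, and the groups did not overlap. The log2 fold change was -1.80 ± 0.36 (edgeR adjusted p = 0.00314), and the call held with each library left out. Among dKO cells JUND was at 101, 73.6 and 80.5 CPM in resistant libraries, against 176, 299 and 152 CPM in parental libraries, again apart. The log2 fold change was -1.30 ± 0.36 (edgeR adjusted p = 0.0189), and the call was lost without parental dKO library 2 (-0.95) or resistant dKO library 2 (-1.22).

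JUN, the founding member of its family, differed little against its spread. It was at 150, 203 and 247 CPM in resistant libraries, against 199, 124 and 24.1 CPM in parental libraries, which overlapped through the high first parental library. Among dKO cells it was at 163, 131 and 261 CPM in resistant libraries, against 209, 282 and 58.6 CPM in parental libraries. Neither log2 fold change passed, at 0.79 ± 0.64 (edgeR adjusted p = 0.382) without the knockout and 0.01 ± 0.64 (adjusted p = 0.99) among dKO cells. The first was 0.29 without parental library 3, and the second -0.41 without parental dKO library 3.

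JUNB (ENSG00000171223, chr19:12791496-12793315, plus strand), which can restrain JUN, was at 53.5, 92.8 and 41.5 CPM in resistant libraries, against 90.5, 130 and 100 CPM in parental libraries. A single resistant library reached the parental range, and the log2 fold change of -0.77 ± 0.29 did not pass (edgeR adjusted p = 0.0664), while it was -1.17 (adjusted p = 0.0139) without resistant library 2 and -0.84 (adjusted p = 0.0459) in limma-voom. Among dKO cells JUNB was at 133, 110 and 106 CPM in resistant libraries, against 62.8, 78.6 and 74.4 CPM in parental libraries. These did not overlap, as for 20.3% of genes tested with all resistant libraries above, and the log2 fold change of 0.70 ± 0.29 did not pass (edgeR adjusted p = 0.101).

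ATF3 (ENSG00000162772, chr1:212565334-212620777, plus strand), a stress-induced repressor and activator that pairs with JUN proteins, was uniformly low in resistant cells. It was at 7.41, 8.22 and 10.2 CPM in resistant libraries, against 115, 176 and 7.97 CPM in parental libraries. Parental libraries 1 and 2 were high and parental library 3 lay inside the resistant range, so the groups overlapped. The log2 fold change was -3.53 ± 1.07 (edgeR adjusted p = 0.0264). Among dKO cells ATF3 was at 9.90, 8.92 and 8.65 CPM in resistant libraries, against 107, 170 and 4.25 CPM in parental libraries, with a log2 fold change of -3.36 ± 1.06 (edgeR adjusted p = 0.0358). Each call was lost with any library but parental library 3 left out: without the knockout to log2 -3.41 and -2.84 (parental 1, 2) and -3.43, -3.50 and -3.62 (resistant 1, 2, 3), and among dKO cells to -3.27 and -2.61 (parental dKO 1, 2) and -3.45, -3.36 and -3.32 (resistant dKO 1, 2, 3). Each call was also lost with limma-voom (-2.66 and -2.21, adjusted p = 0.185 and 0.277).

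MYC was at 24.3, 57.1 and 93.0 CPM in resistant libraries, against 181, 312 and 47.9 CPM in parental libraries. Among dKO cells it was at 31.8, 44.6 and 99.9 CPM in resistant libraries, against 218, 566 and 52.5 CPM in parental libraries. MYC drives growth and ribosome genes. In both comparisons parental library 3 fell inside the resistant range. The log2 fold changes of -1.63 ± 0.81 and -2.25 ± 0.83 did not pass (edgeR adjusted p = 0.151 and 0.0659). With both parental libraries numbered 3 left out they were -2.09 and -2.77 (adjusted p = 0.0269 and 0.00874), and without parental dKO library 3 alone the second was -2.74 (adjusted p = 0.0189). The libraries left out had the lowest MYC of their groups, so larger falls were built into that choice. With all libraries the fold change among dKO cells also passed in DESeq2 (-2.23, adjusted p = 0.0156). Both passed in edgeR with no filter on low counts (-1.60 ± 0.351 and -2.25 ± 0.358, adjusted p = 0.000101 and 1.44e-08). There the fold changes hardly moved and the SEs were smaller, from the same libraries.

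**Figure D2:**
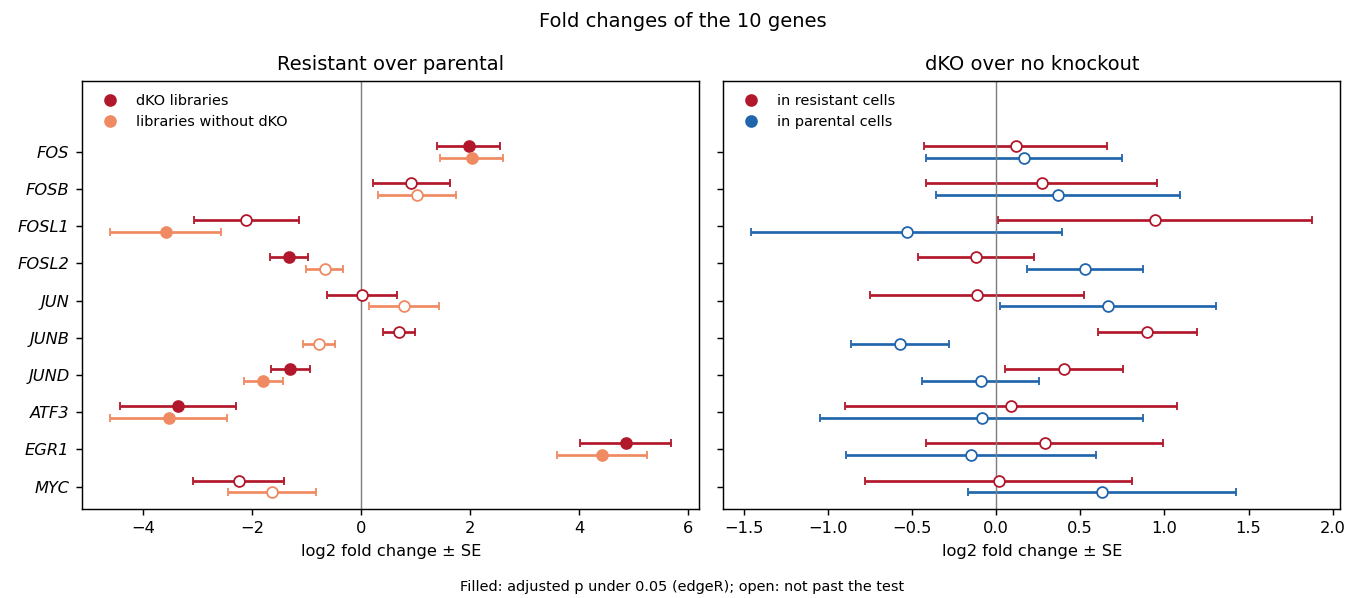
Log2 fold change with its SE for the 10 genes: resistant over parental on the left, for dKO libraries and libraries without the knockout, and knockout over no knockout on the right, in resistant and in parental cells. Filled points passed edgeR's test, 5 of 10 in each resistance comparison and 0 of 10 in each knockout comparison, where JUNB lies at 0.90 in resistant and -0.57 in parental cells.

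The libraries numbered 3 shared a pattern that differed between backgrounds. Library 3 minus the mean of libraries 1 and 2, in log2 CPM, was -4.95 for ATF3 in parental dKO and -4.14 in parental cells, shifts that 0.0501% and 0.0836% of the genes tested matched in size. MYC shifted in library 3 by -2.74 in parental dKO and -2.31 in parental cells (1.31% and 1.47% of genes as large), and JUN by -2.05 and -2.70 (4.11% and 0.763%). In the resistant cells library 3 was instead the highest for FOSL1, by 3.25 in resistant dKO and 2.81 in resistant cells (0.435% and 0.379% of genes as large). EGR1 was higher there by 2.29 and 1.94 (2.49% and 1.84% of genes as large), and MYC by 1.40 and 1.32 (11.8% and 7.01%). The median absolute shift over all genes was 0.568 in resistant dKO, 0.381 in resistant, 0.519 in parental dKO and 0.439 in parental cells. With both parental libraries numbered 3 left out, ATF3 was at log2 -4.09 in resistant against parental cells. In that setting 7 of the 10 genes passed without the knockout, FOSL2 and MYC added, where 28.5% of all genes did. Among dKO cells 6 passed, MYC added, where 26.8% of all genes did. Both libraries left out were the lowest of their groups for ATF3, MYC and FOSL2, and the resistant libraries numbered 3 were kept. Passing in that setting thus follows in part from which libraries were left out.

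**Figure D3:**
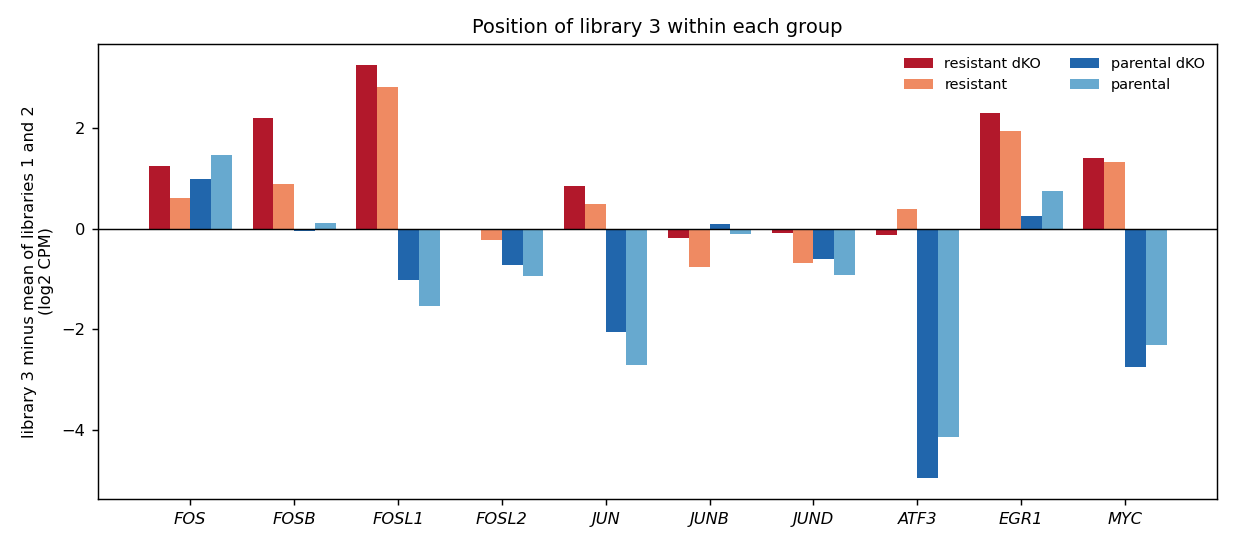
Library 3 minus the mean of libraries 1 and 2 (log2 CPM) for each of the 10 genes in the 4 groups. The bars of ATF3, MYC and JUN point down in both parental groups, and those of FOSL1, EGR1 and MYC point up in both resistant groups.

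Divided by exon length, the counts give the make-up of each family, as a share of the family's CPM per kilobase. FOSL1 made up 44.2 ± 29% of the FOS family in resistant dKO, 34.3 ± 27% in resistant, 72.3 ± 3.05% in parental dKO and 83.5 ± 4.24% in parental cells (SD, n = 3 each). The share of FOSL1 ranged from 20.1% to 76.4% in resistant dKO, 7.74% to 61.7% in resistant, 69.2% to 75.3% in parental dKO and 79.3% to 87.7% in parental libraries. The highest resistant dKO library thus lay above the parental dKO libraries. FOSL2 took most of the rest, at 50.8 ± 28.1% in resistant dKO, 59.9 ± 26.5% in resistant, 27.2 ± 2.77% in parental dKO and 16.1 ± 3.84% in parental cells. FOS itself held 4.38 ± 1.09%, 5.05 ± 0.56%, 0.367 ± 0.316% and 0.334 ± 0.408% in the same order, and FOSB under 1% in every library. In the JUN family the share of JUND was 28.3 ± 3.34% in resistant dKO, 27.7 ± 9.66% in resistant, 55.2 ± 4.40% in parental dKO and 56.3 ± 3.13% in parental cells. The shares of JUND did not overlap between resistant and parental libraries. JUN held 31.9 ± 8.83%, 45.4 ± 12.6%, 23.8 ± 10.4% and 14.2 ± 9.68% in the same order, and JUNB 39.8 ± 5.80%, 26.8 ± 8.33%, 21.0 ± 7.44% and 29.6 ± 9.68%.

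**Figure D4:**
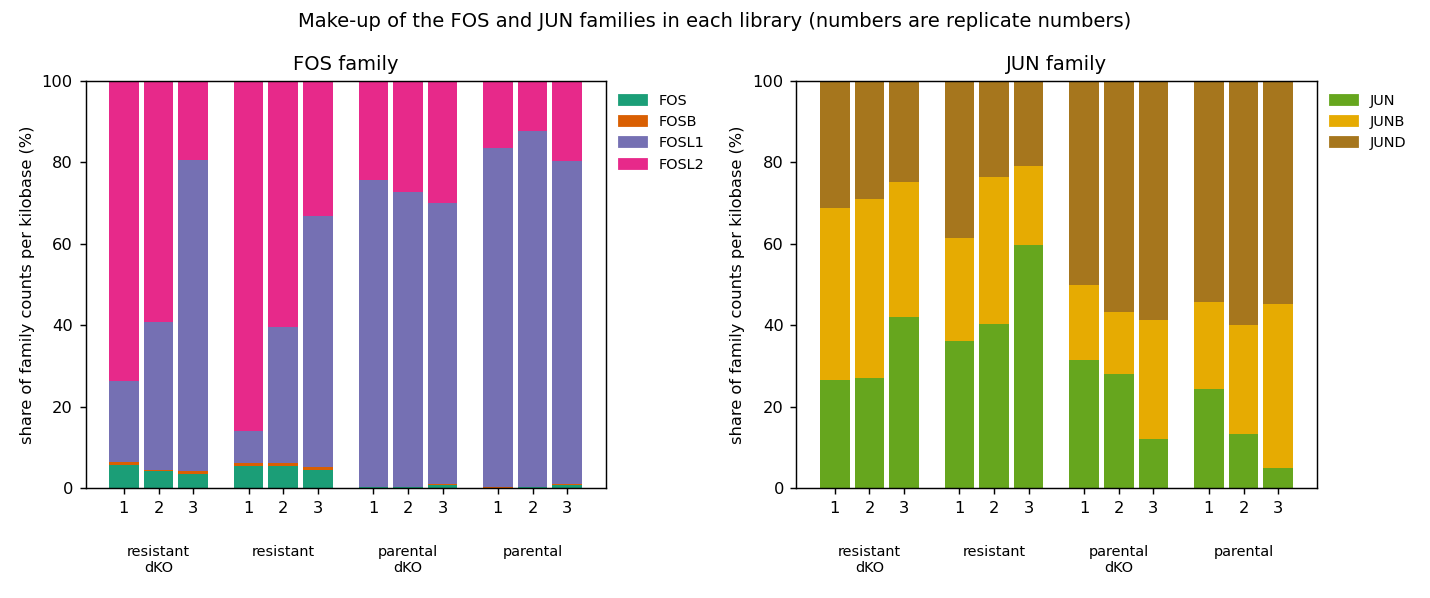
Share of each member in the counts per kilobase of the FOS family (left) and the JUN family (right), as stacked bars for every library, numbered by replicate, from resistant dKO to parental. FOSL1 holds 69.2% or more of the FOS family in every parental library, and JUND 50.2% or more of the JUN family.

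The double knockout moved none of the 10 genes past the test in either background. In parental cells edgeR called 0 of the 10 genes and 0 of 17947 genes (percent called 0), with 0 of the 10 and 539 of all genes at an unadjusted p under 0.05. DESeq2 called 11 genes and limma-voom 1, none of them among the 10. In resistant cells edgeR called 0 of the 10 where 0.212% of all genes were called, and JUNB alone had an unadjusted p under 0.05. DESeq2 and limma-voom called none of the 10 there. The difference of the knockout effects was called for 0 of the 10, where 0.0279% of all genes were called, with JUNB alone at an unadjusted p under 0.05, and DESeq2 and limma-voom again called none.

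JUNB was the member whose libraries did not overlap with their controls in either background. In resistant cells it was at 133, 110 and 106 CPM in dKO libraries, against 53.5, 92.8 and 41.5 CPM in libraries without the knockout, with all 3 above as for 8.02% of genes tested (7.17% lay below). The log2 fold change was 0.90 ± 0.29 (edgeR adjusted p = 0.399). In parental cells it was at 62.8, 78.6 and 74.4 CPM in dKO libraries, against 90.5, 130 and 100 CPM in libraries without the knockout, with all 3 below as for 3.38% of genes tested (3.20% lay above), and the log2 fold change was -0.57 ± 0.29 (adjusted p = 1). The difference between backgrounds was 1.47 ± 0.42 (edgeR adjusted p = 0.635). The labels name no pairing. Replicate numbers were taken to pair the parental libraries because same-numbered ones deviated together in these same counts, so the blocked fits are not independent evidence. With the numbers as a block on those 2 groups alone, JUNB was at -0.55 ± 0.11 (edgeR adjusted p = 0.0142). That fit called 7.58% of genes, 4.11% as lower. With the block within backgrounds JUNB was at -0.56 (adjusted p = 0.317). JUNB overlaps the oppositely transcribed HOOK2, with 28762 reads against 18883 for JUNB, and HOOK2 overlapped between knockout and control libraries in both backgrounds, at log2 0.38 ± 0.42 in resistant and 0.39 ± 0.42 in parental cells.

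For the other 9 genes the knockout and control libraries overlapped in both backgrounds. FOSL1 had the largest offset of them in resistant cells, at 41.5 ± 53.0 CPM in resistant dKO and 21.5 ± 23.2 CPM in resistant cells (log2 0.94 ± 0.94, edgeR adjusted p = 0.893). It was -0.99 without resistant dKO library 3. In parental cells the largest was JUN, at 183 ± 114 CPM in parental dKO and 116 ± 87.6 CPM in parental cells (log2 0.66 ± 0.64, adjusted p = 1). Without the pairing these offsets were about as large as their errors. EGR1 was at 0.29 ± 0.71 in resistant and -0.15 ± 0.75 in parental cells on the same scale, and ATF3 at 0.09 ± 0.99 and -0.09 ± 0.96. In the fit that took the parental libraries as pairs by number the errors were smaller. There JUN was at 0.85 ± 0.27, MYC at 0.44 ± 0.14 and FOSL1 at -0.45 ± 0.13 (edgeR adjusted p = 0.151, 0.0889 and 0.0585). JUN and MYC were higher, and FOSL1 and ATF3 lower, in the dKO library of all 3 pairs, and none of them passed. ATF3 was at -0.25 ± 0.15 in that fit (edgeR adjusted p = 0.343). How many of all genes ran the same way in all 3 pairs was not counted.

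The other genes of these pathways are given from lists chosen with earlier results of these data known, with counts for resistant against parental cells first and among dKO cells second. Over all genes tested 15.2% were higher and 12.8% lower without the knockout, and 13.6% and 10.2% among dKO cells. Those shares are the background for every list below. MAP kinase phosphatases and Sprouty proteins, which switch MAP kinase signalling off, had 0 higher and 8 lower of 16 tested, and 1 higher and 4 lower among dKO cells. DUSP4 was at 4.47 ± 1.24 CPM in resistant and 93.2 ± 32.1 CPM in parental cells (log2 -4.38 ± 0.57), and SPRY2 at 5.91 ± 1.25 and 31.4 ± 7.88 CPM (log2 -2.41 ± 0.35). The median log2 fold change of this list was -0.93, against 0.02 over all genes, and -0.57 among dKO cells. MAP kinases and ternary complex factors had 3 higher and 5 lower of 25, and 3 and 3 among dKO cells. MAPK11, a p38 kinase, was at 183 ± 37.1 CPM in resistant and 27.6 ± 7.17 CPM in parental cells (log2 2.73 ± 0.31). RPS6KA3 fell, with 23.5 ± 2.80 CPM in resistant and 79.6 ± 3.29 CPM in parental cells (log2 -1.76 ± 0.22). Among dKO cells the ternary complex factor ELK4 fell, with 34.8 ± 6.81 CPM in resistant and 83.8 ± 19.6 CPM in parental libraries (log2 -1.27 ± 0.26).

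Other immediate early genes split, with 9 higher and 6 lower of 30, and 5 and 4 among dKO cells. CCN2, a matricellular target of serum response factor and YAP, was at 864 ± 722 CPM in resistant and 7.03 ± 3.82 CPM in parental cells (log2 6.94 ± 1.12). The kinase SGK1 was at 205 ± 77.6 CPM in resistant and 4.28 ± 4.30 CPM in parental cells. PHLDA1 fell, with 21.6 ± 3.37 CPM in resistant and 563 ± 302 CPM in parental cells, and KLF4 likewise, with 6.18 ± 0.405 and 94.8 ± 60.6 CPM. Genes that act with ATF3 in stress had 0 higher and 9 lower of 13, and 0 and 8 among dKO cells, with a median log2 fold change of -2.26 and -2.11. DDIT3, which encodes CHOP, was at 15.0 ± 3.39 CPM in resistant and 125 ± 82.6 CPM in parental cells, and TRIB3 at 34.3 ± 11.7 and 551 ± 412 CPM. Other bZIP partners had 2 higher and 5 lower of 15, and 1 and 2 among dKO cells, with MAFG at 42.7 ± 7.61 CPM in resistant and 172 ± 54.5 CPM in parental cells (log2 -2.01 ± 0.32).

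Textbook AP-1 targets had 5 higher and 6 lower of 21, and 4 and 5 among dKO cells. The cytokine IL6 had 2 reads over the 3 resistant libraries and 6351 over the parental ones, CXCL8 was at 1.17 ± 0.203 CPM in resistant and 357 ± 385 CPM in parental cells, and the collagenase MMP1 had 6 reads against 7417. INHBA, an activin subunit, rose, with 79.4 ± 17.6 CPM in resistant and 0.922 ± 0.749 CPM in parental cells (log2 6.41 ± 0.58). EGR1 partners and targets had 3 higher and 3 lower of 10, and 2 and 3 among dKO cells. PDGFB rose, with 75.5 ± 22.1 CPM in resistant and 4.62 ± 3.02 CPM in parental cells, and so did THBS1, with 1520 ± 1040 and 99.1 ± 37.4 CPM. ICAM1 fell, with 0.254 ± 0.134 and 5.02 ± 1.21 CPM (log2 -4.28 ± 0.70), and so did F3, with 95.4 ± 54.6 and 461 ± 116 CPM. The MYC dimer network had 1 higher and 2 lower of 13, and 1 and 2 among dKO cells, with MYCL at 6.92 ± 1.18 CPM in resistant and 1.72 ± 0.354 CPM in parental cells. Textbook MYC targets had 0 higher and 2 lower of 24, NOLC1 and PUS7, and 0 and 4 among dKO cells, with a median log2 fold change of -0.68 and -0.71. In the knockout comparisons 0 genes of any of these lists were called by edgeR. Few genes were called there at all: 0 of 17947 in parental cells, 38 in resistant cells and 5 for the difference.

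The genes closest in pattern were found by the root mean square distance of centred log2 CPM over the 12 libraries, among 11870 genes with at least 5 CPM on average. EGR1 was closest to PTHLH (0.628) and HBEGF (0.69), where the median gene was at 2.41. HBEGF, an EGF receptor ligand, was at 112 ± 76.8 CPM in resistant dKO, 132 ± 60.6 CPM in resistant, 4.68 ± 0.482 CPM in parental dKO and 3.76 ± 0.598 CPM in parental cells. ATF3 was closest to PPP1R15A (0.456) and DDIT3 (0.578), against a median of 1.98, and FOSL1 to DUSP4 (0.774) and MYEOV (0.798), against 2.14. PPP1R15A, which reverses the block of translation under stress, had 29.6 to 546 CPM in parental dKO libraries, where ATF3 had 4.25 to 170 CPM. JUND was closest to FBXW9 (0.212) and NDRG1 (0.216), FOS to EVA1A (0.328) and LRRC20 (0.336), and MYC to PNO1 (0.384) and PRKCE (0.4). The nearest genes were PISD and SCMH1 for FOSL2, CARMIL2 and GADD45B for JUN, ZC4H2 and IFT22 for JUNB, and BCS1L and MTFP1 for FOSB. Among the 10 genes themselves the closest pair was FOSL2 and JUND (0.446).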

How the data were processed

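Poly(A) RNA was measured in 12 libraries in 4 groups of 3, grouped by sample title. The authors deposited whole-number counts for each gene, not normalized. GRCh38, featureCounts 2.0.1, STAR 2.7.10a and Trim Galore 0.6.10 are named in the submitters' processing notes, while the annotation and the strand setting were not given in the sources used here. Reads carry no molecular identifiers. The table held 59542 rows. A total of 44 identifiers were repeated, with 0 reads, and a second deposited copy was equal in 833588 cells. A pair of resistant columns has a letter that differs from the titles (CDDK for CDDP) and was assigned by the remaining text. Depth was 15659352 to 19706754 counts.

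From these counts, filterByExpr in edgeR 4.0.16 (R 4.3.3) kept 17947 genes. TMM scaling, a quasi-likelihood fit of all 12 libraries with a mean per group and Benjamini-Hochberg adjustment at 0.05 gave 5 comparisons. The SE is the absolute log2 fold change divided by the square root of F. CPM are given as mean ± SD. Exon lengths are unions from GENCODE 29 on GRCh38. Named list genes are up to 4 per list and comparison that passed with at least 1 CPM, by size, and nearest genes are the 2 of smallest distance on log2 CPM (prior count 2). The members and lists were chosen with earlier results of these data known. Same-numbered parental dKO and parental libraries deviated together from their group means (r across genes 0.658, 0.774 and 0.779), so the numbers were taken to pair them. Resistant pairs gave 0.569, -0.186 and 0.639 and were not taken as pairs. Other settings tried were size factors by median of ratios, plain library size, other filters, DESeq2 1.42.0, limma-voom (limma 3.58.1), the compared groups alone, replicate blocks, leaving out each library and leaving out both parental libraries numbered 3. Leaving out all 4 libraries numbered 3 was added after the data were seen.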

Additional observations from a re-analysis of the deposited data

Results flagged for a closer look

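The knockout offset of JUNB pointed in opposite ways in the 2 backgrounds. All 3 resistant dKO libraries lay above all resistant libraries, as for 8.02% of genes tested. All 3 parental dKO libraries lay below all parental libraries, as for 3.38% of genes tested. How many genes separated in opposite ways in the 2 backgrounds was not counted. The difference between the offsets was 1.47 on the log2 scale, and edgeR's test of it gave an adjusted p of 0.635 over all genes tested, which does not pass in the fit without a replicate block. JUNB was flagged because its offsets differed between the backgrounds, so a large difference was built into that choice. The difference ranged from 1.22 to 1.87 with each library left out in turn, which does not test that choice.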

How the results depend on the processing

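EGR1 in both resistance comparisons, and JUND without the knockout, passed under every alternative run. ATF3 lost both calls with limma-voom and with the replicate block over all 12 libraries (-2.77 and -2.68, edgeR adjusted p = 0.0737 and 0.0848). With each library left out in turn, 2 to 5 of the 10 genes passed in resistant against parental cells and 1 to 6 among dKO cells, each from fewer libraries. In the knockout comparisons edgeR called 0 of the 10 genes with each library left out, and JUNB alone was called in 3 blocked fits, which raised the count of members to 1: the knockout in resistant cells with the replicate block within backgrounds (0.98, adjusted p = 0.0207; 0.96 and 0.0682 on those 2 groups alone), the difference of the knockout effects with that block (1.54, adjusted p = 0.0217), and the knockout in parental cells with the block on those 2 groups. In the resistant cells same-numbered libraries 1 and 3 deviated together (r 0.569 and 0.639), and those numbered 2 did not (-0.186). The numbers were therefore not taken as pairs there, and whether some of those libraries are paired is not known. The block changed no other call of the 10 genes except ATF3 and, in resistant against parental cells, JUNB (-0.81, adjusted p = 0.0411). Library size alone shifted the median of all genes by up to 0.148, and resistant dKO against parental dKO then had 2928 higher and 1368 lower against 2445 and 1836; JUNB then passed (0.86, adjusted p = 0.0449). Over all genes the knockout in resistant cells gave 38 calls, 451 with no filter, 249 with DESeq2, 939 and 688 with blocks, 66 without both parental libraries numbered 3, 21 without all 4 and 4 to 17 with a library left out. The knockout in parental cells gave 0, and 83 with no filter, 11 with DESeq2, 1 with limma-voom and 1, 154 and 1206 with blocks. The difference of the effects gave 5, and 161, 67, 11 with library size alone, 10 without both parental libraries numbered 3, 18 and 274 with blocks and 3 to 8 with a library left out. The resistance comparisons gave 3081 to 4737 (5030 with all libraries) and 2714 to 4696 (4281). Without length, FOSL1 held 22.7% of the FOS family counts in resistant dKO, 15.3% in resistant, 41.1% in parental dKO and 57.8% in parental cells.

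Signs changed only for values that passed no test, with the cause not tested. With library size alone, the knockout in resistant cells was -0.00921 for MYC and the difference of the knockout effects was 0.00808 for FOS. With no filter, the knockout in resistant cells was -0.0241 for MYC. With at least 1 CPM in 3 libraries, the knockout in resistant cells was -0.00968 for MYC and resistant dKO against parental dKO was -0.00498 for JUN. With limma-voom, the knockout in resistant cells was -0.0233 for FOS and -0.18 for FOSB. With only the groups compared, the knockout in resistant cells was -0.00947 for MYC. With a replicate block over all 12 libraries, the knockout in resistant cells was -0.0386 for ATF3. With a replicate block on the groups compared, the knockout in resistant cells was -0.00325 for FOS and -0.0208 for FOSB. With both parental libraries numbered 3 left out, the knockout in parental cells was 0.18 for EGR1, the knockout in resistant cells was -0.00185 for MYC and resistant dKO against parental dKO was -0.45 for JUN. With all 4 libraries numbered 3 left out, the knockout in parental cells was 0.17 for EGR1, the knockout in resistant cells was -0.20 for FOS, -0.53 for FOSB and -0.10 for MYC, resistant dKO against parental dKO was -0.34 for FOSB and -0.79 for JUN and the difference of the knockout effects was -0.16 for EGR1. With each library left out in turn, signs also changed. For the knockout in parental cells the ranges were -0.29 to 0.91 for FOS, -0.85 to 0.61 for ATF3, -0.45 to 0.17 for JUND, -0.76 to 0.24 for EGR1 and -0.43 to 1.29 for MYC. For the difference of the knockout effects the ranges were -0.81 to 0.40 for FOS, -1.28 to 0.35 for FOSB, -0.53 to 0.93 for ATF3, -1.27 to 0.44 for MYC, -0.45 to 2.81 for FOSL1 and -0.77 to 1.38 for EGR1. For resistant dKO against parental dKO the ranges were -0.41 to 0.47 for JUN and -0.26 to 1.36 for FOSB. For the knockout in resistant cells the ranges were -0.28 to 0.0785 for FOSL2, -0.0141 to 0.21 for ATF3, -0.92 to 1.22 for EGR1, -0.61 to 0.52 for MYC, -0.45 to 0.0791 for JUN, -0.42 to 0.41 for FOS, -0.92 to 0.72 for FOSB and -0.99 to 2.29 for FOSL1. Low counts limit FOS and FOSB.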
